A study of Homo sapiens with 6 samples.

Results

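The genes described here encode serum amyloid A, components of the complement cascade and the complement regulators of the cell surface: SAA1, SAA2, C1R, C1S, C3, CFB, CD55, CD46 and CD59. They were chosen by name, with earlier results of these data known. Each of the 9 was found as 1 row among the 23786 rows of the expression table. Their transcripts were measured on microarrays in HSC3, a cell line from a human oral squamous carcinoma, in 3 wells treated with 0.1 μM E7386 in dimethyl sulfoxide (DMSO) and 3 wells treated with 0.1% DMSO alone. E7386 is a small molecule described as blocking the interaction of β-catenin, the effector of Wnt signalling, with the coactivator CBP. Treatment began 12 to 24 hours after seeding, at about 50% confluency, and lasted 48 to 64 hours. All 6 wells held the same unmodified line, and no second dose or line enters the comparison. The sample titles name biological replicates and the growth protocol describes separate wells, so that p-values reflect only the variation among these wells, which may be partly technical.

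Complement is a proteolytic cascade of plasma that marks cells and microbes for uptake or lysis. In its classical route the paired proteases C1r and C1s cleave the next components, in its alternative route factor B forms an enzyme with the activated central component C3, and both routes converge on cleavage of C3. Cells protect themselves with surface regulators, of which CD55 speeds the decay of the C3-cleaving enzymes, CD46 is a cofactor for the inactivation of deposited C3 fragments, and CD59 blocks assembly of the lytic pore. Serum amyloid A proteins are acute phase reactants, made mainly by the liver in response to signals that include interleukins. Epithelial cells can also make them and complement C3.

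Treated wells had more transcript of SAA1, SAA2, C1S, C3 and CD55 and less of CD46, whereas C1R, CFB and CD59 did not pass the test. The 3 largest differences, in C1S, CD55 and C3, were between 2.74-fold and 2.92-fold. Genes were called where limma, a linear model fitted to all rows, gave a Benjamini-Hochberg adjusted p under 0.05. By that rule 5 of the 9 members were higher and 1 was lower with E7386, that is 66.7% of them, against 18.6% of all rows and 33.2% of the rows at or above the median row mean. In 8 of the 9 members the 3 E7386 values lay wholly on one side of the 3 DMSO values, 7 above and 1 below, as they did in 35.2% of all rows. The median difference of the members, E7386 minus DMSO, was 0.93 on the log2 scale, against -0.016 over all rows. Since the members were chosen with earlier results of these data known, these shares and medians describe them and test nothing.

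**Figure D1:**
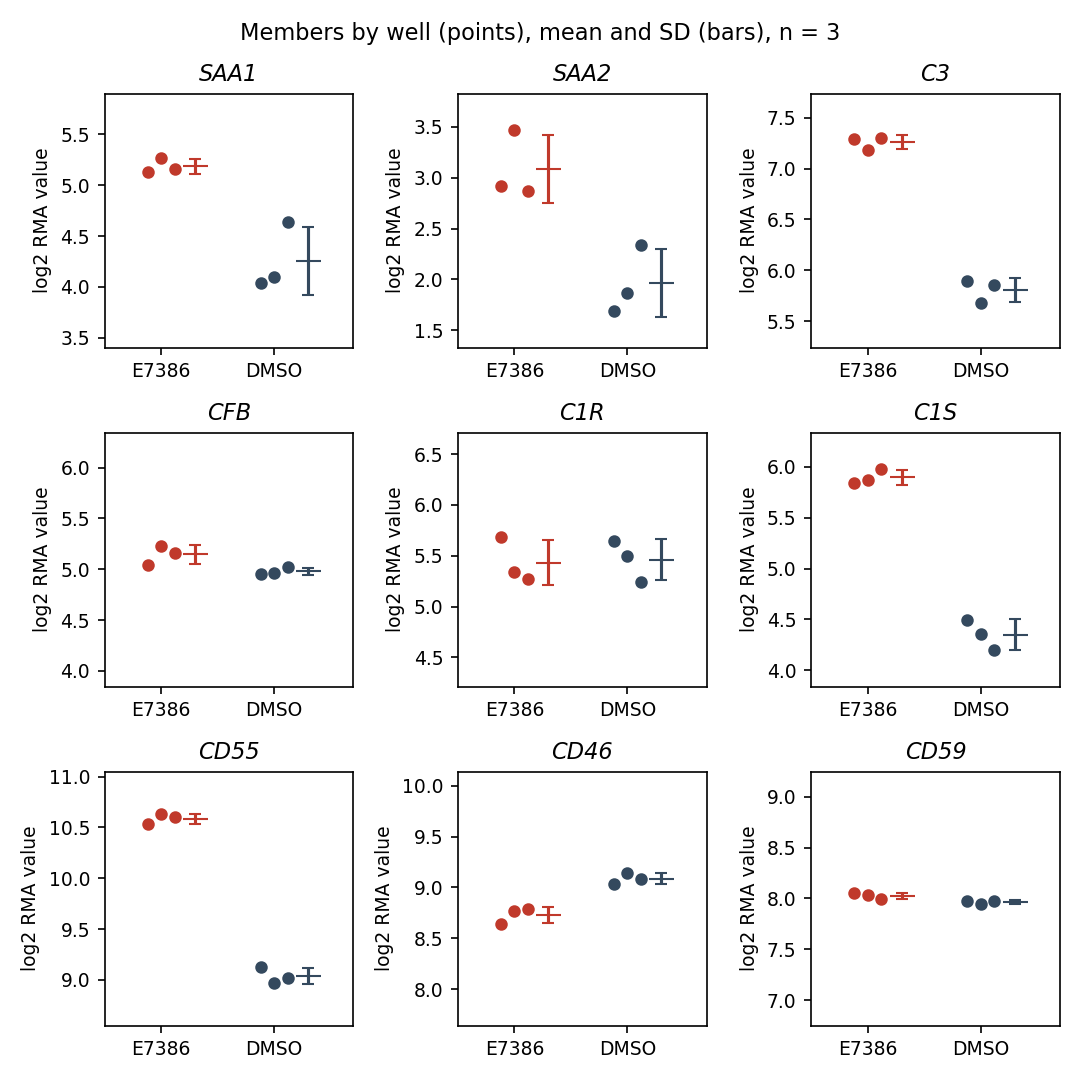
Log2 RMA values of the 9 members in each well (points), with the mean and SD of each group beside them (n = 3), E7386 at the left of each panel and DMSO at the right. All panels span the same log2 range. The groups are apart in every panel except that of C1R, by only 0.015 in CD59 and 0.024 in CFB.

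Values are the authors' log2 RMA values, which ran from 0.343 to 12.0 with array medians of 3.74 to 3.79. They measure each gene's share of the RNA on an array, so that fewer cells with a transcript and less of it per cell cannot be told apart. Across rows, wells of one group correlated at 0.992 to 0.995 and wells of different groups at 0.982 to 0.985, and the median SD within groups was 0.15. Of 10 squamous epithelial markers 9 lay above the median row mean of 3.75, and 2, KRT5 and KRT14, were called lower with E7386. None of 10 hepatocyte markers did, with summed levels of 22.7 to 25.2 with E7386 and 23.0 to 25.7 in DMSO, and limma called 0 of them, with 2 at an unadjusted p under 0.05. Among 10 leukocyte markers CD68, CSF1R and ITGB2 lay above it and ITGB2 was called. The summed levels were 32.5 to 34.0 with E7386 and 32.8 to 33.8 in DMSO, and the defining marker PTPRC stood at 1.37 with E7386 and 1.20 in DMSO. The fibroblast and endothelial markers had 2 of 10 each above the median, and of these 20 genes only FAP was called, lower with E7386.

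Both serum amyloid A genes rose. SAA1 stood at 5.13, 5.27 and 5.16 in the E7386 wells, against 4.04, 4.10 and 4.64 in the DMSO wells. The E7386 wells lay close together, and the third DMSO well was nearer to them than the other DMSO wells were. The difference was 0.93 ± 0.164 (SE), a 1.90-fold higher signal with E7386 (limma adjusted p = 0.0075, n = 3 per group). SAA2 stood at 2.92, 3.47 and 2.87 in the E7386 wells, against 1.69, 1.87 and 2.34 in the DMSO wells. Here too the groups did not overlap, and the third DMSO well was the highest of its group. The difference of SAA2 was 1.12 ± 0.214 (limma adjusted p = 0.010). SAA2 lay below the median row mean in all wells, where RMA compresses differences and gives no detection call, so its size is uncertain.

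SAA1 and SAA2 are neighbouring, near-identical genes whose transcripts can share probes, so their rises may not be separate measurements. The second E7386 well was the highest of its group in both. Set against SAA1 within each well, SAA2 differed between the groups by 0.19 on the log2 scale, with an exact two-sided permutation p of 0.20 (0.23 after adjustment over the 7 pairs of members compared). That value was 0.041 without the second E7386 well and 0.29 without the third E7386 well. Both calls held without any single well, with limma adjusted p of 0.0018 to 0.034 for SAA1 and 0.0095 to 0.042 for SAA2.

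The proteases of the first complement complex parted. C1S stood at 5.84, 5.87 and 5.98 in the E7386 wells, against 4.50, 4.35 and 4.20 in the DMSO wells. The groups were 1.34 apart at their nearest wells, far more than the spread within either. C1S was higher by 1.55 ± 0.105 (SE), a 2.92-fold difference (limma adjusted p = 1.6e-04), and 74 rows of the table rose by more.

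C1R encodes the protease that activates C1s within the same complex. It stood at 5.68, 5.34 and 5.28 in the E7386 wells, against 5.65, 5.50 and 5.24 in the DMSO wells. The groups overlapped almost fully. Its difference was -0.029 ± 0.149, with a 95% interval of -0.38 to 0.32 (limma adjusted p = 0.93). The spread of C1R within groups, with SDs of 0.220 and 0.204, was wider than that of C1S, at 0.0732 with E7386 and 0.150 in DMSO. The gap between C1S and C1R within a well shifted by 1.58 with E7386. All 3 E7386 wells lay on one side of the DMSO wells in that gap, the most extreme split that 3 against 3 allows (exact two-sided permutation p = 0.10, the smallest possible; 0.14 after adjustment over the 7 pairs of members compared).

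In the gene order of the GRCh38.p14 assembly C1R lies between C1S and C1RL, which encodes a C1r-like protease. C1RL averaged 5.53 ± 0.0452 with E7386 and 4.96 ± 0.241 in DMSO (SD, n = 3 each). It was called higher, by 0.57 ± 0.130 (limma adjusted p = 0.020), but without any one well other than the third DMSO well it lost the call (limma adjusted p = 0.051 to 0.072). The next measured gene beyond C1S, LPCAT3, was not called, at a difference of -0.26.

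C3, the component on which all complement routes converge, rose. It stood at 7.29, 7.19 and 7.30 in the E7386 wells, against 5.89, 5.68 and 5.86 in the DMSO wells. Each E7386 well was more than a whole log2 unit above each DMSO well. The difference was 1.45 ± 0.0959 (SE), or 2.74-fold, with a 95% interval of 1.23 to 1.68 (limma adjusted p = 1.4e-04). Only 98 rows rose by more.

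CFB encodes factor B, the protease that joins C3 in the alternative route. It stood at 5.04, 5.23 and 5.16 in the E7386 wells, against 4.96, 4.96 and 5.02 in the DMSO wells. The E7386 wells were all above the DMSO wells, but by only 0.024 at the nearest pair. The difference of 0.17 ± 0.0891 was not called (limma adjusted p = 0.27), and its 95% interval of -0.042 to 0.37 lay wholly below that of C3. Within wells, C3 shifted against CFB by 1.29, in the same direction in every E7386 well relative to every DMSO well (exact two-sided permutation p = 0.10; 0.14 after adjustment over the 7 pairs). C3 and C1S shifted by like amounts, with a difference of -0.094 between them and overlapping wells (exact two-sided permutation p = 0.60, also after adjustment).

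**Figure D2:**
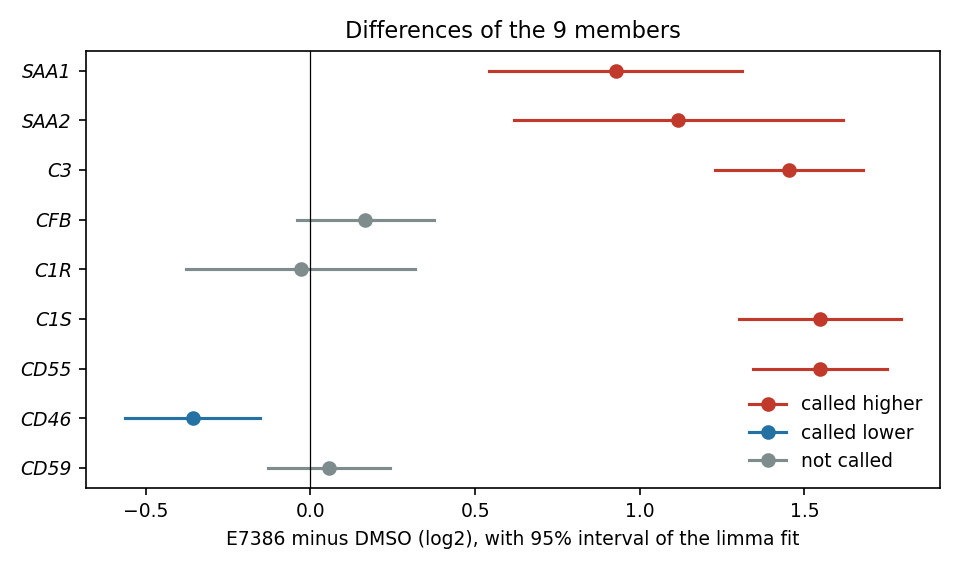
Difference between E7386 and DMSO wells of each member on the log2 scale (points), with the 95% interval of the limma fit (lines), coloured by call. C1S, CD55 and C3 form the upper group at 1.45 to 1.55, SAA1 and SAA2 lie at 0.93 and 1.12, CD46 lies below 0, and the intervals of CFB, C1R and CD59 cross 0.

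The membrane regulators went in different directions. CD55, or decay-accelerating factor, stood at 10.53, 10.63 and 10.60 in the E7386 wells, against 9.13, 8.97 and 9.02 in the DMSO wells. The wells of each group were tightly placed and 1.40 apart at the nearest pair. CD55 was higher by 1.55 ± 0.0874 (SE), a 2.92-fold difference (limma adjusted p = 8.1e-05), the smallest adjusted p of the 9 members. It was called in each of the 13 alternative fits.

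CD46, or membrane cofactor protein, was lower with E7386. It stood at 8.64, 8.77 and 8.78 in the E7386 wells, against 9.04, 9.14 and 9.08 in the DMSO wells. The groups did not overlap, and lay 0.254 apart at the nearest pair. The difference was -0.36 ± 0.0879, a 1.28-fold lower signal (limma adjusted p = 0.028). It was no longer called without any single well (limma adjusted p = 0.050 to 0.089), with the difference then between -0.38 and -0.31.

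CD59, or protectin, stood at 8.05, 8.03 and 7.99 in the E7386 wells, against 7.98, 7.95 and 7.98 in the DMSO wells. The values of both groups fell within a narrow band, with SDs of 0.0286 with E7386 and 0.0179 in DMSO. The difference of 0.057 ± 0.0792 was not called (limma adjusted p = 0.70), and its 95% interval of -0.13 to 0.24 excludes a change of the size seen in CD55. Within wells CD55 shifted by 1.90 against CD46 and by 1.49 against CD59, and CD59 shifted by 0.41 against CD46. In each of these 3 pairs the E7386 wells lay wholly on one side of the DMSO wells (exact two-sided permutation p = 0.10 each, 0.14 after adjustment over the 7 pairs). The 3 pairs share their members and were chosen after values were seen, so they are not separate tests.

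**Figure D3:**
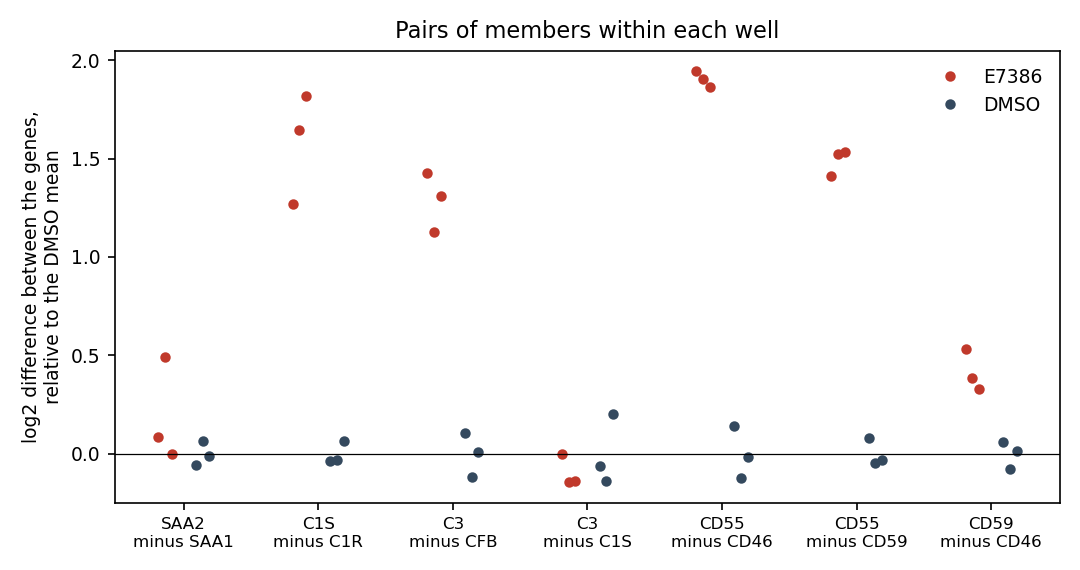
Log2 difference between 2 members within each well, relative to the mean of the DMSO wells, for the 7 pairs compared (points, 3 wells per group, E7386 at the left of each pair). The E7386 wells stand apart from the DMSO wells in 5 pairs, by a mean of 0.41 to 1.90, and overlap them for SAA2 against SAA1 and C3 against C1S.

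CD55 and CD46 belong to one family of complement regulators and lie in the same gene cluster on chromosome 1, with the receptor genes CR2 and CR1 between them. Since they changed in opposite directions, the windows around their start sites are shown, from 250 bases before to 50 bases after the start, as RefSeq gives them on GRCh38.p14. The CD55 window is chr1:207321428-207321727 and the CD46 window, the first of 2 starts in the table, is chr1:207751788-207752087, both on the plus strand. Capitals mark TGACG, the core of CREB/ATF sites, searched on both strands.
CD55: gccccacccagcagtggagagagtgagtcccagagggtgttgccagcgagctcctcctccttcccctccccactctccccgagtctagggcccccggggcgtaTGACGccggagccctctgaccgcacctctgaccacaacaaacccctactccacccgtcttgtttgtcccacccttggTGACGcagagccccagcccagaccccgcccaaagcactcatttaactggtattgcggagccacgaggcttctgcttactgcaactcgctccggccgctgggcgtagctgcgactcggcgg
CD46: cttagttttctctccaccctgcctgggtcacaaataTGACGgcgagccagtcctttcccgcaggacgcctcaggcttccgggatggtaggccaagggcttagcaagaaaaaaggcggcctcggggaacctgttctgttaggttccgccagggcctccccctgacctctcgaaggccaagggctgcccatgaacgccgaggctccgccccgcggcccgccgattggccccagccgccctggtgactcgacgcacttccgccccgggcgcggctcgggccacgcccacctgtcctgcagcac

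The CD55 window held TGACG 2 times, beginning 147 and 70 bases before the start, and the CD46 window held it once, beginning 214 bases before. A window of C1R, which was not called, held it 19 bases before the start, and no window of CFB or CD59 held it. TGACG occurs in 24.6% of the 35116 promoter windows of the same length. The motif TTCNNNGAA, a STAT site, read the same on both strands, was in neither the CD55 nor the CD46 window and is in 7.66% of all. SAA1, SAA2, C3 and C1S had no window in the table, so of the members called higher only CD55 was searched. Among the 5 members with a window the STAT motif was found for CFB, C1R and CD59, which were not called. In C1R and CD59 only some of the windows held it. The TCF/LEF motif ATCAAAG and GGGNNTTCC, a 9-letter form of NF-kB site, were in none of the 10 windows of those 5 members. They are in 2.62% and 6.58% of all windows. Only these letters were searched, so NF-kB sites of another length or spelling could not have been found. A match is a run of letters, not a bound site, and a missing match says nothing of the factor.

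Of the 27 measured protein-coding genes nearest to the members on the assembly, 2 on each side of each member with the members themselves left out, 4 were called higher, 2 lower and 21 not at all. The 6 called are 22.2% of them, against 18.6% of all rows. Between CD55 and CD46, CR2 and CR1 stood near the bottom of the scale, at 1.47 and 1.36 with E7386 and 1.47 and 1.35 in DMSO. Beside SAA1, HPS5, a subunit of a complex that builds lysosome-related organelles, rose by 0.49 ± 0.0858 (limma adjusted p = 0.0075). Beside CFB, NELFE, a subunit of a factor that pauses RNA polymerase, rose by 0.53 ± 0.0798 (limma adjusted p = 0.0039), while C2, the classical-route counterpart of factor B, had a difference of 0.35 ± 0.126 and missed the threshold (limma adjusted p = 0.10). C2 was called with dim genes left out (limma adjusted p = 0.039) and in no other alternative fit. The neighbours called lower were PLXNA2, a semaphorin receptor beside CD46, at -0.49 ± 0.0883, and FBXO3, a subunit of a ubiquitin ligase beside CD59, at -0.41 ± 0.0845 (limma adjusted p = 0.0080 and 0.014). FBXO3 lost its call without the second E7386 well (0.059). The other risers were C1RL and GTF2H1, a subunit of a transcription and repair complex, at 0.35 (limma adjusted p = 0.046), and the call of GTF2H1 was lost after median centring (0.053) and without any single well but the second DMSO well (0.093 to 0.15).

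CD55 and CD59 reach the cell surface on a glycosylphosphatidylinositol (GPI) anchor, whereas CD46 spans the membrane. Of 24 measured genes of GPI anchor synthesis and attachment 5 rose and 2 fell, or 29.2% called, against 18.6% of all rows and 33.2% of those at or above the median, where all 24 lay. PIGH and PIGC, subunits of the enzyme of the first step, rose by 0.67 ± 0.0978 and 0.67 ± 0.101, and DPM2, which takes part in the same enzyme, by 0.56 ± 0.0850 (limma adjusted p = 0.0033 to 0.0040). PIGA, the catalytic subunit of that enzyme, differed by -0.072 and was not called. PIGU, a subunit of the transamidase that attaches the anchor, fell by 0.65 ± 0.113 (limma adjusted p = 0.0069). PIGT, of the same transamidase, rose by 0.35 ± 0.0953, with limma adjusted p = 0.042, but it was not called without any single well (0.060 to 0.14) or after median centring (0.052). PIGB, a mannosyltransferase, fell by 0.38 ± 0.0947 (limma adjusted p = 0.029), and of the single wells only the third E7386 well could be left out without losing that call. The median difference of the list was 0.20.

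**Figure D4:**
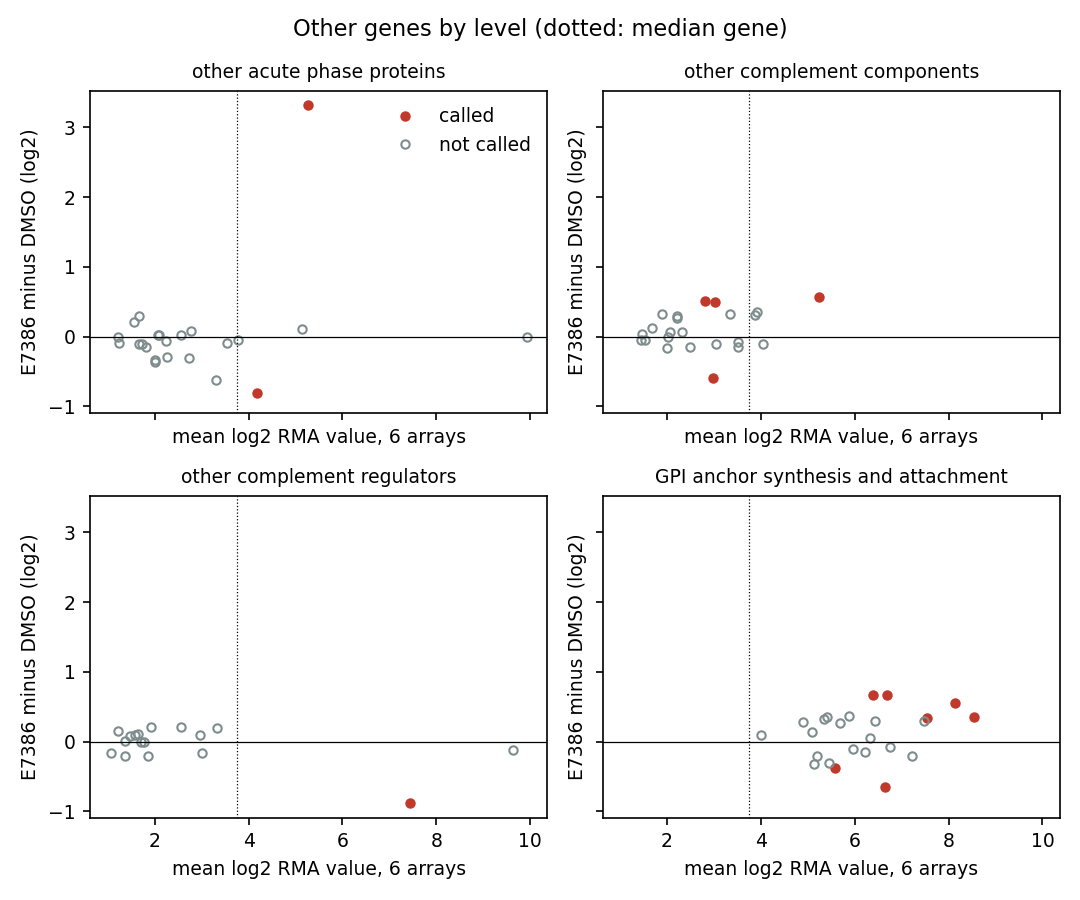
Mean log2 RMA value over the 6 arrays (x axis) and difference between E7386 and DMSO wells (y axis, log2) of the genes in 4 lists, with called genes filled and the median row mean of 3.75 dotted. Most other acute phase and complement genes lie left of the dotted line and near 0, LCN2 stands alone at the top, and all 24 GPI anchor genes lie right of the line.

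Most other genes of the complement system lay low on the scale, where RMA does not tell expression from background. Of 23 other components 19 lay below the median row mean, as did 15 of 17 other regulators and 8 of 9 receptors. Of the 4430 rows called in the whole table, 3954 lay at or above that median. The share of 18.6% over all rows is therefore too high a background for lists that lie mostly below it. Among the components 3 were called higher and 1 lower, or 17.4%. Besides C1RL these were C5, the component cleaved to start the lytic pore, at a difference of 0.50 ± 0.113, C8G, a subunit of that pore, at 0.49 ± 0.118, and CFP, or properdin, which stabilises the alternative enzyme, at -0.59 ± 0.129 (limma adjusted p = 0.017 to 0.025). These last 3 were below the median in both groups, and each lost its call without some wells. None of the components was called without the second or the third E7386 well or without the first DMSO well.

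Of the 17 other regulators 1 was called, or 5.88%, and of the 9 receptors 1, or 11.1%, against 18.6% of all rows. Since most of both lists lay below the median row mean, these shares cannot be read as low. The regulator was CLU, which encodes clusterin, a secreted chaperone and inhibitor of the lytic pore. CLU averaged 7.01 ± 0.154 with E7386 and 7.89 ± 0.0534 in DMSO (SD, n = 3 each). It fell by 0.88 ± 0.104 (SE; limma adjusted p = 0.0015). The soluble regulators CFI and SERPING1 lay below the median at 1.71 and 2.02 with E7386 and 1.60 and 1.82 in DMSO, and neither was called. Among the receptors ITGB2, the shared chain of the complement receptor integrins, rose by 0.95 ± 0.116 (limma adjusted p = 0.0016). Its partner chains ITGAM and ITGAX were not called.

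Of 23 other acute phase genes measured, 1 rose and 1 fell, or 8.7%, against 18.6% of all rows, with a median difference of -0.058. Of the 23, 18 lay below the median row mean, where calls were rarer, so this share cannot be read as low. LCN2, or lipocalin 2, rose by 3.32 ± 0.207, and S100A9, a subunit of calprotectin, fell by 0.81 ± 0.112 (limma adjusted p = 1.1e-04 and 0.0027). SERPINA1, or α1-antitrypsin, lay high on the scale and nearly level, at 9.92 ± 0.0504 with E7386 and 9.93 ± 0.0997 in DMSO (SD, n = 3 each). SERPINA3, or α1-antichymotrypsin, stood at 2.59 ± 0.294 with E7386 and 2.90 ± 0.309 in DMSO and was not called. All 7 plasma proteins that decline in the acute phase lay below the median, and limma called 0 of 7, with 0 at an unadjusted p under 0.05.

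The signals, inhibitors and transcription factors known to act on acute phase genes changed in both directions. Of 31 measured members 11 rose and 9 fell, or 64.5%, against 18.6% of all rows and 33.2% of those at or above the median, where 27 of the 31 lay. The median difference was 0.19. This list, too, was written with earlier results of these data known, so its share is a description. On the interleukin-6 side, IL6ST, the signalling chain shared by the receptors of that family, was at 9.90 ± 0.128 with E7386 and 8.51 ± 0.214 in DMSO (SD, n = 3 each), a rise of 1.39 ± 0.131 (SE; limma adjusted p = 5.4e-04). LIFR and OSMR, partner receptors of IL6ST, rose by 0.95 ± 0.160 and 0.58 ± 0.0976, and IL6 itself by 0.86 ± 0.108 (limma adjusted p = 0.0019 to 0.0063). IL6R, the ligand-specific chain, fell by 0.45 ± 0.0862 (limma adjusted p = 0.010).

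STAT3, the transcription factor of that route, rose by 0.38 ± 0.0830 and its feedback inhibitor SOCS3 by 0.48 ± 0.126 (limma adjusted p = 0.017 and 0.037). STAT3 was not called without the second or the third E7386 well or the second DMSO well (limma adjusted p = 0.053 to 0.070), and SOCS3 was not called without any single well but the third DMSO well (0.069 to 0.11) or after renewed quantile normalization (0.060). CEBPB, a factor that binds acute phase promoters, rose by 0.94 ± 0.0958 (limma adjusted p = 7.7e-04). Its relative CEBPD, at a difference of 0.45 ± 0.135, missed the threshold (limma adjusted p = 0.058). CEBPD was called in 5 of the 13 alternative fits, with dim genes left out, with array weights, without the second DMSO well and in both fits with an intensity trend (limma adjusted p = 0.017 to 0.047).

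On the interleukin-1 and TNF side the ligands were lower. TNF fell by 1.30 ± 0.0918, IL1A by 0.72 ± 0.0922 and IL1B by 0.50 ± 0.103, while IL1RN, the receptor antagonist, rose by 1.07 ± 0.152 (limma adjusted p = 1.7e-04 to 0.014). The call of IL1B was lost without the first or the third E7386 well (limma adjusted p = 0.051 and 0.054). Of the NF-kB subunits RELB, RELA and NFKB2 rose by 0.97 ± 0.113, 0.86 ± 0.0947 and 0.75 ± 0.0855, and NFKB1 was not called. NFKBIA, an inhibitor that NF-kB itself induces, fell by 0.84 ± 0.0848, and NFKBIZ, a nuclear cofactor of NF-kB at secondary response genes, by 0.68 ± 0.111 (limma adjusted p = 7.5e-04 to 0.0054 for these 5 called genes).

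**Figure D5:**
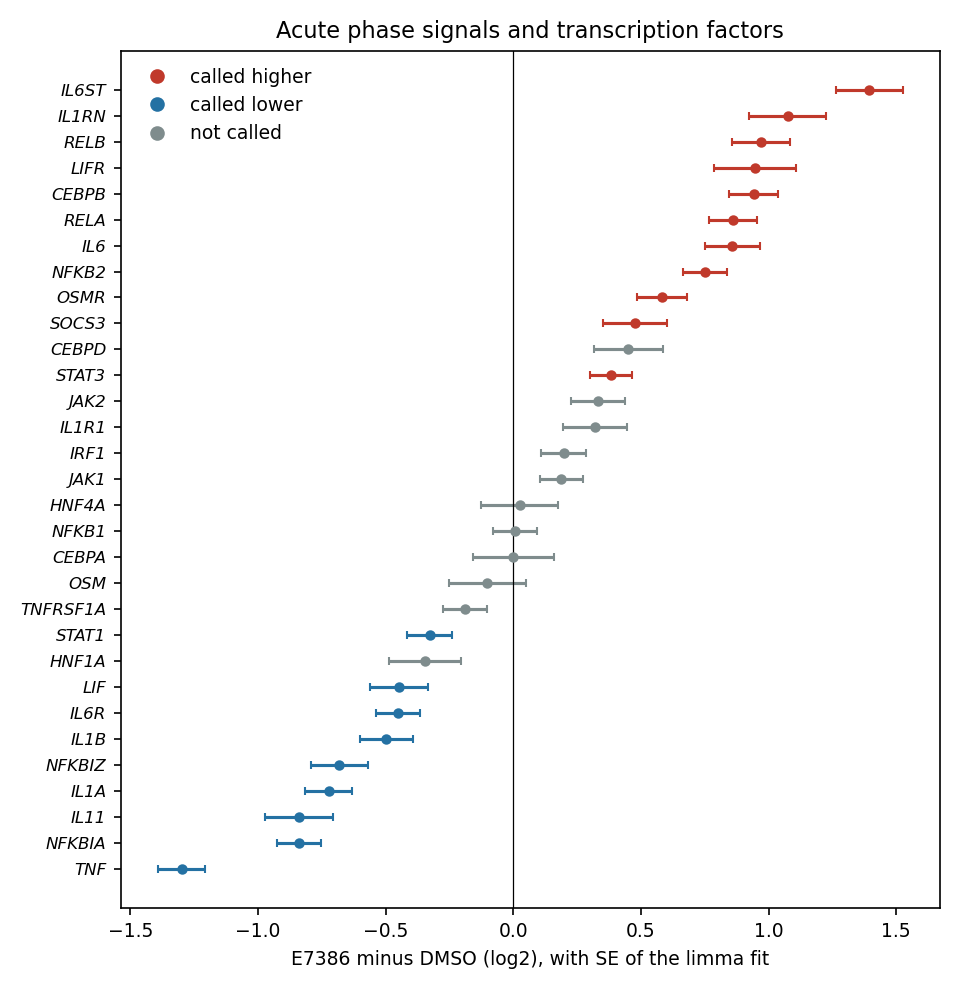
Difference between E7386 and DMSO wells on the log2 scale of the 31 acute phase signals and transcription factors (points), with the SE of the limma fit (bars), coloured by call. The list runs from IL6ST at 1.39 to TNF at -1.30, with 11 genes called higher and 9 called lower.

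For the 2 members with the largest differences, the rows with the most similar values over the 6 arrays were looked up as a description. For C1S these were PEPD, ZFP90 and ERN1, with Pearson r of 0.9999, 0.9998 and 0.9992, and for CD55 they were KDM1B, SESN2 and P4HA2, with r of 0.9997, 0.9997 and 0.9995. The 6 arrays form 2 clusters by treatment, and 179 rows for C1S and 246 for CD55 had an r over 0.99, so these names single out little.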

How the data were processed

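Per the submitters' processing notes, the authors made the deposited log2 expression values by RMA in the affy package, version 1.36.1. That method corrects background, quantile-normalizes the arrays and summarises each gene's probes. Biotin was added to whole-transcript amplified RNA, per the labels' protocols. Neither the probe set definition nor a genome build is given in the sources used here. The table holds 23786 rows and 6 sample columns, all used. Symbols came from the platform annotation, which names 22458 rows, each with 1 symbol, and leaves 1328 unnamed.

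The values were fitted as deposited by limma 3.58.1 in R 4.3.3 (lmFit and eBayes, treatment as the only term), with two-sided p-values and Benjamini-Hochberg adjustment over the whole table. An adjusted p under 0.05 was called. Differences are E7386 minus DMSO. The fit was tested on simulated data. The number of arrays limits the precision, and the smallest exact permutation p for 3 against 3 is 0.10.

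The members, gene lists and alternatives were chosen with earlier results of these data known. Named were all members, the called list genes with the largest differences (at most 6 a list), and SOCS3, STAT3, NFKBIZ, CEBPB, CEBPD, CFI, SERPING1, CLU, SERPINA1, SERPINA3 and LCN2. The genes IL6, IL6R, OSMR, IL1A, IL1B, RELA, NFKB1, NFKB2, NFKBIA, PIGA, C2, ITGAM, ITGAX, the neighbouring genes, the 7 pairs of members and the 4 motifs were chosen after values were seen. SAA4, C4A, C4B and PIGY were not analysed here, and 1 further gene that the rule names is not reported here. Alternatives changed the normalization (quantile again, or centring on the median), the genes (dim ones dropped), the variance prior (a trend, also robust), the weights of arrays, the design (replicate number as block), the size minimum (1.5-fold) or the wells (each dropped once).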

Additional observations from a re-analysis of the deposited data

How the results depend on the processing

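SAA1, C1S, C3 and CD55 were called in all 13 alternative fits and SAA2 in the 12 that tested it, since it falls among the dim genes. CFB, C1R and CD59 were called in none. The call of CD46 was lost with the replicate number as a block, at an unchanged difference of -0.36 (limma adjusted p = 0.053), and without any single well (differences of -0.38 to -0.31), where fewer arrays enter. The members called were 5 of 9 without any single well. At a 1.5-fold minimum they were also 5 of 9, against 9.13% of all rows called with that minimum. Leaving out a well gave -0.15 to 0.063 for C1R, -0.060 to 0.039 for SERPINA1 and -0.033 to 0.040 for NFKB1. SERPINA1 was at 0.00042 with array weights. The genes called over the whole table ranged from 2907 to 3635 without a well, with 2907 without the third E7386 well. The list counts then ranged from 2 to 4 for other acute phase proteins, 0 to 3 for complement components, 1 to 2 for complement receptors and 4 to 6 for GPI anchor genes. With dim genes left out, 2 of the 4 remaining complement components and 13 of 24 GPI anchor genes were called. In that fit 5422 of the 11893 rows kept were called, so neither count stands out from its background. With the block, 4 GPI anchor genes and 3701 genes of the whole table were called, and SOCS3, PIGT, PIGB and GTF2H1 lost their calls (limma adjusted p = 0.074, 0.090, 0.061 and 0.056). Deviations of same-numbered wells correlated at 0.051, 0.12 and -0.0077, and not every well correlated best with its own number. Values this small, from 3 wells per group, do not settle whether the numbers pair the wells. RMA gives no detection call, which limits what can be said of dim genes.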
